A study of Mus musculus with 106 samples.

Results

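The SST immunoprecipitates (IPs) of the cerebrum hold RNA that was pulled down with tagged ribosomes from mice of the study's somatostatin (SST) line. They were chosen by their labels alone: cell type SST, tissue cerebrum, preparation RiboTag IP. The rule gave 9 of the 106 libraries of the series, of which 67 are IPs. The study used mice with a long CAG repeat knocked into the mouse huntingtin gene, and sequenced ribosome-bound RNA from several neuron types of the cerebrum and the cerebellum. The question put to the SST IPs is which protein-coding genes differ between HD and control mice.

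The HD group (4 libraries) carried the Hdh Q7/Q200 genotype and the control group (5 libraries) Hdh Q7/Q7. In the lines that the paper describes, mice of both groups were heterozygous for a Cre driver and for the RiboTag allele Rpl22-HA, on a 129S4 background. The paper does not describe the breeding of the SST line, and no treatment is named. The study's RiboTag mice were about 9 months old, but neither the Cre driver nor the age is given for the SST line in the sources used here. This limits the line as a model, as does the tissue: cerebrum mixes cortex, striatum and other regions, so SST neurons of all of them share 1 library. In bulk RNA of this kind, fewer cells of a type and less RNA per cell cannot be told apart.

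Somatostatin neurons are GABA-releasing interneurons that contact the dendrites of projection neurons. In the striatum, SST cells that also make neuropeptide Y and neuronal nitric oxide synthase are known for being spared in Huntington's disease while the projection neurons around them are lost. In cortex they restrain the distal dendrites of pyramidal cells.

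Control IPs held 28527929 to 40913915 counts assigned to mouse genes (median 30536342) and HD IPs 30868928 to 37196209 (median 34310737). Total RNA of the same line was sequenced in 4 control libraries (24279953 to 42697297 counts) and 3 HD libraries (33020924 to 62160034), and 6 mice gave both kinds of library. Levels are in CPM, where every library is brought to equal size with TMM, a correction for composition, and differences as log2 fold with its standard error (SE). A gene is called when its Benjamini-Hochberg adjusted p is 0.05 or less.

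The IPs were first compared with total RNA of the same line, to see whether they hold SST neuron RNA. Sst itself lay at 875 to 2541 CPM in the 9 IPs and at 107.6 to 279 CPM in the 7 total RNA libraries. Npy, its partner peptide, lay at 273 to 795 CPM in IPs and at 41.9 to 82.7 CPM in total RNA. For both genes each IP was above each total RNA library. The log2 fold of IP over total RNA was 3.15 for Sst (SE 0.2501, adjusted p 1.53e-08, edgeR) and 2.77 for Npy (SE 0.224, adjusted p 1.93e-08, edgeR).

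Across the transcriptome 9455 of 14865 genes tested differed between IP and total RNA (63.6%), 4721 higher in IPs (31.8%) and 4734 lower (31.8%). This fit took all libraries as independent, though 6 mice gave both kinds. With those mice alone and the mouse as block, 9829 of 14889 genes were called. Of 22 genes on a list of SST interneuron markers 18 were higher in IPs and 2 lower, with a median log2 fold of 1.51 against -0.02 over all genes tested. Besides Sst and Npy, the higher ones include Crhbp, which binds corticotropin-releasing hormone (2.73), the peptide gene Cort (2.40), Chodl, a marker of long-range SST cells (2.10), and Elfn1, a synaptic organiser of SST cells (1.60). Lhx6, the transcription factor of interneurons from the medial ganglionic eminence, was higher by 2.32 and the GABA-synthesising enzymes Gad2 and Gad1 by 1.79 and 1.20. Nos1, neuronal nitric oxide synthase, was higher by 0.90, and Calb2 lower at -0.66. Genes of other cells went the other way: 10 of 10 microglia markers, 5 of 5 choroid plexus and ependyma markers, 8 of 10 astrocyte markers, 7 of 10 oligodendrocyte markers and 6 of 9 glutamatergic neuron markers were lower in IPs. Among the exceptions were the astrocyte glutamate transporter Slc1a2 (0.86) and the vesicular glutamate transporter Slc17a6 (1.11), both higher. The lowest p values belonged to Rock2 (4.88), Slc36a1 (2.02), Ccdc25 (2.31), Crhbp and the microglial receptor Csf1r (-2.13).

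**Figure D1:**
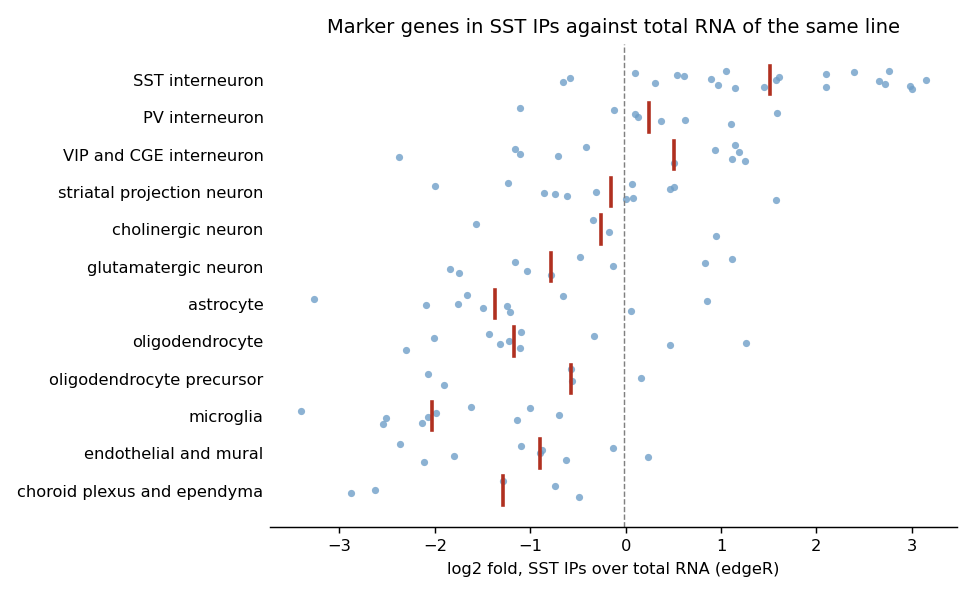
Log2 fold of SST IPs over total RNA of the same line for each marker gene (points), by cell type list, with the list median (red bar) and the median of all genes tested (dashed line). The SST list has its median at 1.51 and the microglia list at -2.03.

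The IPs were thus higher than total RNA for SST markers, but RNA of other cells was present in all of them. The 12 striatal projection neuron markers split, with 3 higher and 6 lower (31.8% each over all genes tested), and Slc17a7, the transporter of cortical excitatory neurons, still stood at 694 to 1210 CPM in the IPs. Of 8 markers of parvalbumin (PV) interneurons 4 were higher and 1 lower than in total RNA (median 0.25), with Pvalb itself not called (log2 fold -0.12, SE 0.240, adjusted p 0.673, edgeR), and of 11 markers of VIP and related interneurons 6 were higher and 5 lower (median 0.50). No member of the PV, glutamatergic, astrocyte, microglia or striatal lists was at 0 in any of the 9 IPs.

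Some IPs stood apart before any comparison of the genotypes. HD replicate 4 lay at 27.6 on the first principal component of the 500 most variable genes (42.0% of variance), where the other IPs lay between -13.5 and 10.1. Its median correlation with the other IPs was 0.962, against 0.977 to 0.987 for the rest. It also had the highest Sst, Npy and Cort levels, 2541, 795 and 31.7 CPM, and the lowest Gad2 level, 265 CPM. Control replicate 6 had the lowest Sst and Npy of the controls, 980 and 273 CPM. The share of counts from mitochondrially encoded genes was 3.42% in HD replicate 2 and 1.81% in control replicate 1, and 0.409% to 0.893% in the other 7 IPs.

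The labels also divide the mice by code. Control replicates 1 and 2 and all 4 HD IPs come from mice coded BR, and control replicates 3, 4 and 6 from mice coded Z. The 3 Z controls had Xist, the transcript of the inactive X chromosome, at 4.62 to 7.12 CPM and the Y-linked gene Ddx3y at 0. The BR controls had Ddx3y at 58.4 and 46.0 CPM and Xist at 0. So code and sex cannot be told apart within the controls. Among HD mice, replicate 3 had Xist (7.42 CPM) without Ddx3y, replicates 1 and 2 had Ddx3y (68.3 and 70.6 CPM) without Xist, and replicate 4 had Ddx3y at 14.4 CPM and Xist at 0.

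Between HD and control SST IPs, edgeR called 0 of 14689 genes (0%). At an unadjusted p under 0.05 there were 216 genes (1.47%), 72 higher and 144 lower in HD, and DESeq2 called 2 (0.0136%), Etnppl and Dao. The split by sign depended on the setting: 109 genes were higher and 102 lower with BR mice alone, 122 and 92 with the mouse code as covariate, 91 and 119 with DESeq2 size factors, and 358 and 250 of 608 without control replicate 1. Over the 20 alternative settings there were 134 to 608 genes at this p. If no gene differed, a share of about 0.05 of the genes would have a p this low, so 216 genes are no excess. The groups did not overlap for 110 genes (0.749%). The median log2 fold over all genes tested was -0.01, and 53.0% were below 0. The genes below are described by their values, since none passed edgeR. Genes picked for a low p tend to have separated groups, so their separation is no further evidence.

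Etnppl, a phospho-lyase that breaks down phosphoethanolamine and is made mainly by astrocytes in brain, had the lowest p (chromosome 3, 130617448 to 130637521). Control replicates 1, 2, 3, 4 and 6 stood at 21.1, 13.8, 11.2, 11.2 and 20.9 CPM, and HD replicates 1 to 4 at 4.85, 6.0, 5.07 and 4.91 CPM. All 4 HD IPs were below all 5 controls, under both mouse codes. The log2 fold was -1.59 (SE 0.235, adjusted p 0.260 in edgeR, 7.00e-06 in DESeq2), and edgeR called the gene when the total RNA libraries were added to the fit (adjusted p 0.0493). Of the 7 libraries added there, 6 come from mice that also gave IPs, so the libraries of that fit are not independent. Over the 20 alternative settings its log2 fold ran from -1.74 to -1.41 and its adjusted p from 7.00e-06 to 1.0.

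Dao, D-amino acid oxidase, which degrades D-serine, was the other gene called by DESeq2. It was low in all IPs: 2.27, 2.12, 3.52, 2.10 and 2.43 CPM in control replicates 1, 2, 3, 4 and 6 and 0.768, 0.809, 0.610 and 0.702 CPM in HD replicates 1 to 4. The groups did not overlap. The log2 fold was -1.78 (SE 0.292, adjusted p 0.337 in edgeR, 8.17e-05 in DESeq2). Dao was lower in IPs than in total RNA, at -1.37 to -0.91 over the 22 alternative settings. The part of RNA from other cells in its HD value was not tested.

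Agt encodes angiotensinogen, which astrocytes make in brain. Its levels were 51.2, 52.0, 55.6, 38.0 and 39.1 CPM in control replicates 1, 2, 3, 4 and 6 and 23.0, 20.4, 31.7 and 30.9 CPM in the HD replicates. Each HD IP was below each control. The log2 fold was -0.83 (SE 0.186, adjusted p 1.0, edgeR). Itih3, a heavy chain of the inter-alpha-trypsin inhibitor that binds hyaluronan, lay at 71.2 to 106 CPM in controls and 48.5 to 63.1 CPM in HD, a log2 fold of -0.64 (SE 0.159, adjusted p 1.0, edgeR).

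The levels of Etnppl, Agt and Itih3 can be set beside the astrocyte markers in the same IPs. The 10 markers had a median log2 fold of -0.08, with 6 below 0 (with BR mice alone -0.22 and 7), and summed to 2517 to 3969 CPM in controls and 2498 to 3195 CPM in HD. Slc1a2 was the most abundant of them and had a log2 fold of -0.56 (SE 0.242), and Apoe had the opposite sign at 0.69 (SE 0.334), neither called (adjusted p 1.0 each, edgeR). In IPs against total RNA the astrocyte list had a median of -1.37, Agt -1.59 (SE 0.142), Itih3 -0.33 (SE 0.109) and Etnppl 0.36 (SE 0.165, adjusted p 0.0657, edgeR). Over the 22 alternative settings this value of Etnppl ran from 0.28 to 0.45. Its adjusted p ran from 0.0118 to 0.133 (edgeR or DESeq2), so its call depended on the setting. The part of astrocyte RNA in the values of these genes was not tested.

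The same genes had values of the same sign in total RNA of the line. Etnppl had a log2 fold of -1.41 there (SE 0.231), Dao -1.79 (SE 0.623), Agt -1.22 (SE 0.202) and Itih3 -1.02 (SE 0.162), none called by edgeR (adjusted p 0.385, 1.0, 0.385 and 0.385), while DESeq2 called Etnppl, Agt and Itih3. Of the 7 total RNA libraries 6 come from mice that also gave IPs, so the libraries are not independent. Of the 10 astrocyte markers in total RNA 9 were below 0 (median -0.24), against 49.4% of all genes tested. An unadjusted p under 0.05 was found for 4, against 2.56% of all genes tested. EdgeR called 0 of the markers and DESeq2 called 1 (0.101% of all genes tested). They summed to 6706 to 7603 CPM in controls and 5605 to 6600 CPM in HD, no overlap. Their part in the total RNA values was not tested. The test of the difference between the HD effect in IPs and in total RNA gave -0.16 (SE 0.341) for Etnppl, 0.03 (SE 0.766) for Dao, 0.42 (SE 0.277) for Agt and 0.40 (SE 0.206) for Itih3, each with adjusted p 1.0 in edgeR.

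Among the other genes with the lowest p, some act in neurons. Crh, corticotropin-releasing hormone, stood at 14.0, 18.3, 16.4, 14.5 and 17.4 CPM in control replicates 1, 2, 3, 4 and 6 and at 10.4, 7.49, 11.2 and 9.45 CPM in HD. All HD IPs were below all controls, with a log2 fold of -0.74 (SE 0.165, adjusted p 1.0, edgeR). Crh was higher in IPs than in total RNA (1.25), where its own HD value was -0.75 (SE 0.239). Akr1c18, which inactivates progesterone and was also higher in IPs (2.62), had a log2 fold of -1.0 (SE 0.231, adjusted p 1.0, edgeR); control replicate 1 at 6.85 CPM lay among the HD IPs (4.94 to 7.16 CPM) and the other 4 controls lay at 10.8 to 15.1 CPM. Lrig1, a membrane regulator of growth factor receptors, had -0.60 (SE 0.146) and the phosphatase gene Dusp18 -0.59 (SE 0.166). Lrig1 was lower in IPs than in total RNA, at -0.63 to -0.57 over the 22 alternative settings. Dusp18 ran from -0.20 to -0.05 there.

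Chdh, choline dehydrogenase of mitochondria, was higher in HD. It lay at 6.79, 7.11, 7.53, 7.15 and 9.97 CPM in control replicates 1, 2, 3, 4 and 6 and at 17.6, 10.9, 14.3 and 11.7 CPM in HD replicates 1 to 4. The groups did not overlap, and the log2 fold was 0.82 (SE 0.189, adjusted p 1.0, edgeR). Total RNA gave 0.81 (SE 0.178), called by DESeq2 (adjusted p 0.0420) and not by edgeR. Also above all controls in each HD IP were Cdkn1c, an inhibitor of cyclin-dependent kinases (0.87, SE 0.202), Acy3, an aminoacylase (0.96, SE 0.240), the linker histone gene Hist1h1c (0.93, SE 0.242), the tetraspanin gene Cd82 (0.73, SE 0.193) and Tmc3, a transmembrane channel-like gene (1.42, SE 0.372), all with adjusted p 1.0 in edgeR. Most of these genes were lower in IPs than in total RNA. Over the 22 alternative settings that log2 fold ran from -2.52 to -2.31 for Cd82 and -2.47 to -2.29 for Hist1h1c. It ran from -1.35 to -1.21 for Cdkn1c and -0.92 to -0.73 for Acy3. Tmc3 ran from -0.17 to 0.10 and Chdh from 0.25 to 0.37. The part of RNA from other cells in their HD values was not tested. Zfp973, below all controls in each HD IP (-1.23, SE 0.281), belongs to a large family of similar zinc finger genes, and its value is uncertain for that reason.

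Mt-Nd3, a subunit gene of complex I in the mitochondrial genome, also had a low p. It had 0 counts in all 5 control IPs and in HD replicate 3, and 278, 546 and 501 counts in HD replicates 1, 2 and 4, so the groups overlap. Total RNA libraries held it at 30.9 to 291 CPM. No fold is given against a group at 0, and its value is uncertain because the other 12 mitochondrially encoded genes had counts in all 9 IPs. Without HD replicate 3 edgeR called mt-Nd3 and no other gene (adjusted p 0.00177).

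**Figure D2:**
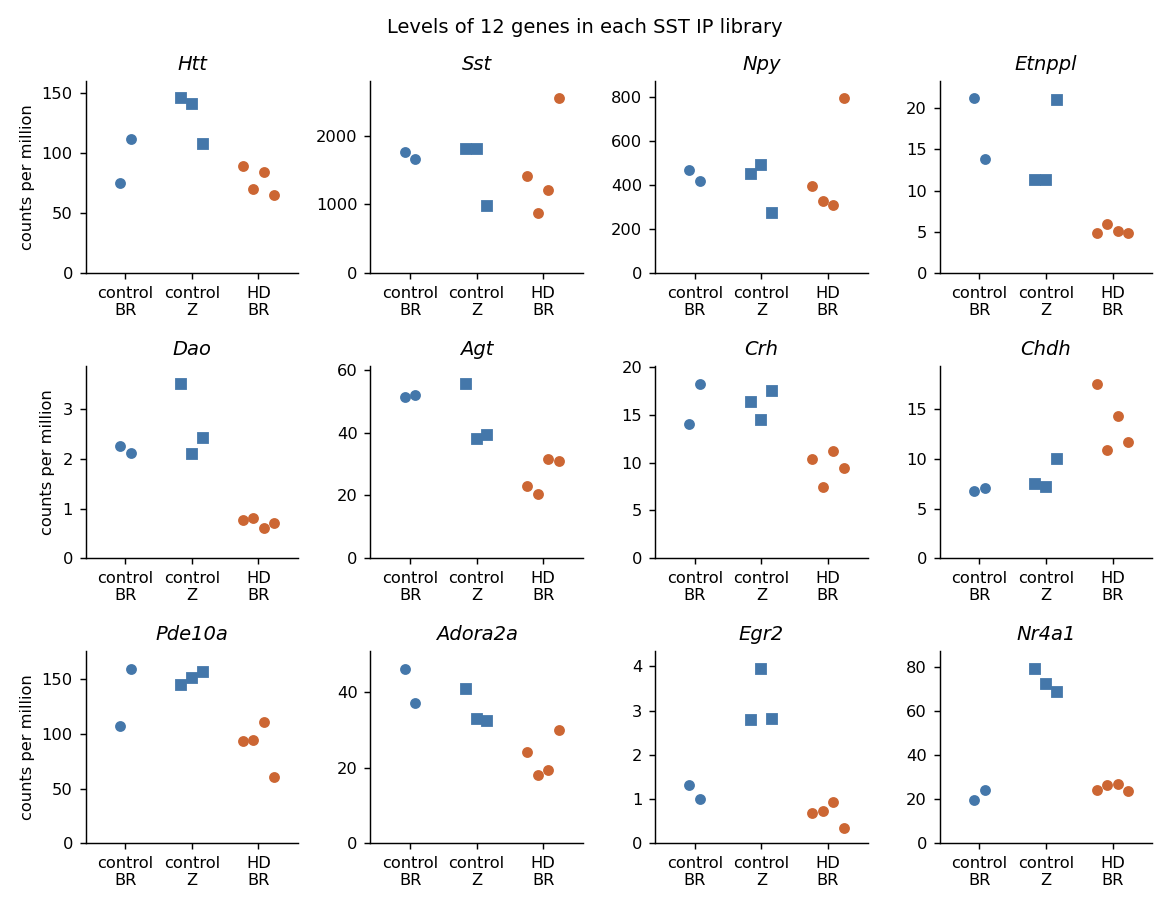
Levels (CPM, linear axes from 0) of 12 genes in each SST IP library, 1 point per library, for controls coded BR (circles), controls coded Z (squares) and HD mice, all coded BR. Etnppl in HD lies between 4.85 and 6.0, below all controls, and Nr4a1 in Z controls lies between 68.8 and 79.3, above all BR mice of either genotype.

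Htt, the gene that carries the repeat, stood at 75.6, 112, 146, 141 and 107.8 CPM in control replicates 1, 2, 3, 4 and 6 and at 89.7, 70.1, 84.4 and 64.9 CPM in HD replicates 1 to 4. Control replicate 1 lay within the HD range and the other 4 controls above it. The log2 fold was -0.59 (SE 0.201, adjusted p 1.0, edgeR), and -0.28 with BR mice alone (2 controls, 4 HD). In total RNA Htt had -0.41 (SE 0.175, adjusted p 1.0, edgeR).

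The defining peptides of SST neurons showed more spread within groups than between them. Sst was 1762, 1654, 1810, 1801 and 980 CPM in control replicates 1, 2, 3, 4 and 6 and 1416, 875, 1204 and 2541 CPM in HD replicates 1 to 4. HD replicate 4 was the highest and HD replicate 2 the lowest of all 9, so the groups overlap. The log2 fold was -0.09 (SE 0.282, adjusted p 1.0, edgeR), between -0.46 and 0.10 when libraries were left out in turn. In total RNA Sst had the other sign, 0.53 (SE 0.274, adjusted p 1.0, edgeR; 0.21 to 0.83 over the alternative settings), with groups that overlapped, and the IP value minus the total RNA value was -0.57 (SE 0.440, adjusted p 1.0, edgeR; -0.98 to -0.26). Npy was 469, 422, 450, 490 and 273 CPM in the controls and 398, 328, 308 and 795 CPM in HD, a log2 fold of 0.12 (SE 0.277, adjusted p 1.0, edgeR) and -0.29 without HD replicate 4. The groups overlapped for Npy as well, and total RNA gave 0.10 (SE 0.247).

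Nos1 (log2 fold -0.26, SE 0.251), Cort (0.17, SE 0.266), Gad1 (-0.16, SE 0.227) and Gad2 (-0.17, SE 0.169) overlapped between groups too, with adjusted p 1.0 in edgeR. Over the 20 alternative settings Nos1 ran from -0.40 to 0.16, Cort from -0.19 to 0.32, Gad1 from -0.30 to 0.04 and Gad2 from -0.23 to -0.04. Of the 22 SST markers 19 were below 0, with a median of -0.15 (all genes tested: -0.01), and Hpse, heparanase, had the lowest value at -0.55 (SE 0.244). Their summed level was 2533 to 3984 CPM in controls and 2582 to 4528 CPM in HD. With DESeq2 size factors 16 of 22 were below 0 and with BR mice alone 14 of 22 (median -0.13 in both). Markers of PV neurons had a median of -0.14 (8 of 8 below 0, 5 of 8 with DESeq2 size factors) and those of VIP and related interneurons -0.23 (8 of 11). Ccnd1, cyclin D1, had a log2 fold of 0.10 (SE 0.170, adjusted p 1.0, edgeR).

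Genes of striatal projection neurons were below 0 as a list. All 12 members had a negative log2 fold, as did 53.0% of all genes tested, with a median of -0.39 against -0.01. At an unadjusted p under 0.05 there were 4 of them (1.47% of all genes tested), and 0 were called. Their summed level was 1478, 1389, 1355, 1379 and 1310 CPM in control replicates 1, 2, 3, 4 and 6 and 1067, 1086, 967 and 1039 CPM in HD replicates 1 to 4. Every HD IP was below every control. The median was between -0.51 and -0.35 over the 20 alternative settings, and -0.51 with BR mice alone.

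Adora2a, the adenosine receptor of striatopallidal neurons, had the lowest log2 fold of the list at -0.72 (SE 0.184), with 32.3 to 46.2 CPM in controls and 18.0 to 30.1 CPM in HD. Pdyn, prodynorphin, had -0.66 (SE 0.201), with 178 to 316 CPM in controls and 127 to 174 CPM in HD. These were the 2 members of 12 whose groups did not overlap, as for 0.749% of all genes tested. Pde10a, a phosphodiesterase of projection neurons, had -0.68 (SE 0.192); control replicate 1 at 107 CPM lay just below HD replicate 3 at 111 CPM. The dopamine receptors Drd1 and Drd2 had -0.47 (SE 0.163) and -0.37 (SE 0.170), the enkephalin precursor Penk -0.36 (SE 0.180), the dopamine signalling protein Ppp1r1b -0.37 (SE 0.233) and the RNA-binding gene Arpp21 -0.34 (SE 0.175). All had adjusted p 1.0 in edgeR. Gpr6, an orphan receptor of striatopallidal neurons outside the list, had -0.88 (SE 0.196), with 5.72 to 7.21 CPM in controls and 2.77 to 4.38 CPM in HD, no overlap.

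Total RNA of the line gave a median of -0.47 for the same 12 genes, again with 12 below 0. There 7 had an unadjusted p under 0.05 (2.56% of all genes tested). EdgeR called 0 of them and DESeq2 called 1 (0.101% of all genes tested). Adora2a, Gpr6 and Ppp1r1b were lower in IPs than in total RNA (-1.23, -1.45 and -2.0), while Pdyn was higher (1.58) and Drd1 had 0.01 (SE 0.116). The part of RNA from projection neurons in the IP values was not tested. The 4 cholinergic neuron markers were also all below 0 (median -0.44), with sums of 24.5 to 39.7 CPM in controls and 16.7 to 24.4 CPM in HD. Slc5a7, the choline transporter, was the most abundant in 8 of the 9 IPs and stood at 3.13 CPM in HD replicate 4 against 8.60 to 26.5 CPM elsewhere.

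Immediate early genes are switched on in neurons by activity. All 17 were below 0 in HD against control (53.0% of all genes tested), with a median of -0.51 against -0.01 over all genes tested. Of the 17, 9 had an unadjusted p under 0.05, as did 1.47% of all genes tested. With BR mice alone the median was -0.10 and 10 of 17 were below 0. Egr2 stood at 1.33 and 1.01 CPM in BR controls, at 2.80, 3.95 and 2.81 CPM in Z controls and at 0.676, 0.742, 0.942 and 0.351 CPM in HD. It was lower in HD than in either kind of control, with a log2 fold of -1.81 (SE 0.455, adjusted p 1.0, edgeR) that moved to -0.79 with BR mice alone.

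Arc, a regulator of synaptic strength, stood at 31.8 and 34.0 CPM in BR controls, 129, 111 and 89.6 CPM in Z controls, and 31.7, 30.8, 50.8 and 37.2 CPM in HD. Nr4a1, an orphan nuclear receptor, was alike: 19.7 and 24.4 CPM, then 79.3, 72.2 and 68.8 CPM, then 24.2, 26.4, 26.9 and 23.9 CPM. For both genes the Z controls stood above all BR mice, and the BR controls were among the HD values or below them. Summed over the list the level was 395 and 406 CPM in BR controls, 608 to 622 CPM in Z controls and 305 to 420 CPM in HD.

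Z controls were compared with BR controls directly. Of 14622 genes 6 were called (0.041%), Nr4a1 and Gm10409 higher in Z controls and the Y-linked genes Ddx3y, Eif2s3y, Kdm5d and Uty lower. Nr4a1 differed by 1.73 (SE 0.214, adjusted p 0.0392, edgeR), but it was not called when control replicate 1, 2 or 4 was left out, and leaving out replicate 1 left 0 calls in edgeR (93 genes at an unadjusted p under 0.05). At an unadjusted p under 0.05 there were 952 genes (343 without control replicate 4 and 2413 without replicate 6), and DESeq2 called 33. The Y-linked genes were at 0 in all Z controls, so no fold is given, and Gm10409, a predicted gene with close copies, is uncertain. The immediate early genes had a median of 0.78 in this comparison, with 16 of 17 above 0 and Arc at 1.74 (SE 0.234, adjusted p 0.0676, edgeR).

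Ribosomal protein genes were above 0 in HD, along with signs of differing libraries. All 81 cytosolic ribosomal protein genes tested had a positive log2 fold, with a median of 0.54 and 0 at an unadjusted p under 0.05 or called by edgeR or DESeq2. Their summed level was 18180, 8325, 11340, 8761 and 7443 CPM in control replicates 1, 2, 3, 4 and 6 and 11240, 16740, 9122 and 26940 CPM in HD replicates 1 to 4. HD replicate 4, HD replicate 2 and control replicate 1 were the 3 highest, and the groups overlapped. The median was 0.18 without HD replicate 4, 0.82 without control replicate 1 and 0.25 with BR mice alone. The list was lower in IPs than in total RNA, with 73 of 81 members called lower, as were 31.8% of all genes tested, and its median was -0.48 in Z against BR controls.

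The mitochondrially encoded genes other than mt-Nd3 had 12 of 12 above 0, with a median of 0.82. Their sums, led by mt-Co1, were 16320, 5319, 3728, 5473 and 6292 CPM in control replicates 1, 2, 3, 4 and 6, and 8082, 30230, 5413 and 8003 CPM in HD replicates 1 to 4, mt-Nd3 included. HD replicate 2 and control replicate 1 were high and the groups overlapped. Without HD replicate 2 the median of all 13 was 0.01, with BR mice alone it was 0.32, and over the 20 alternative settings it ran up to 1.37. In total RNA the median was -0.58 with 13 of 13 below 0. Nuclear genes of oxidative phosphorylation had a median of 0.15 with 70 of 77 above 0, and -0.01 without HD replicate 4.

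**Figure D3:**
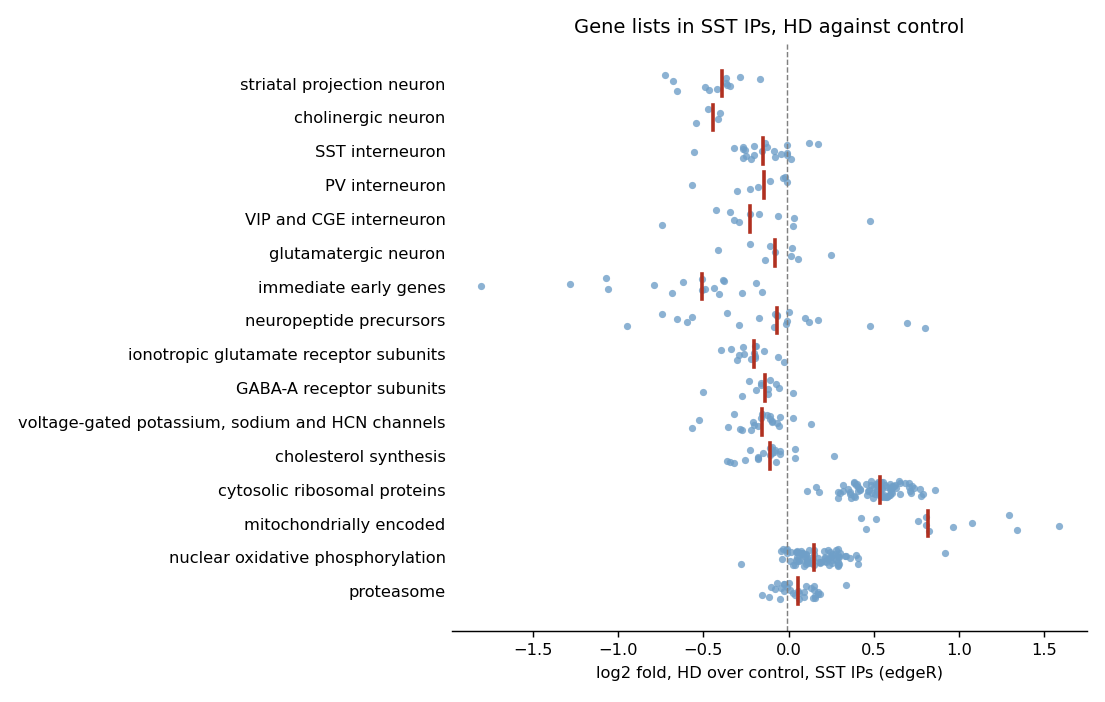
Log2 fold of HD over control in SST IPs for each gene (points) of 16 lists, with the list median (red bar) and the median of all genes tested (dashed line); mt-Nd3, at 0 in all controls, is not drawn. The striatal projection neuron list has its median at -0.39 and the cytosolic ribosomal protein list at 0.54.

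Lists of neuronal signalling genes had medians below 0, and some moved when BR mice were fitted alone. All 15 ionotropic glutamate receptor subunits had a negative log2 fold (median -0.20), but with BR mice alone 8 of 15 were below 0 and the median was -0.07. GABA-A receptor subunits had a median of -0.14 with 11 of 12 below 0, -0.19 with 12 of 12 with BR mice alone, and 0.05 with 4 of 12 when HD replicate 4 was left out; Gabrb2 stood at 12.8 CPM in that library. Potassium, sodium and HCN channels had -0.16 with 20 of 22 below 0, and with BR mice alone -0.17 with 16 of 22. Neurotrophins and their receptors had -0.23 (6 of 8), and -0.20 (8 of 8). Nitric oxide and cGMP signalling had -0.14 (11 of 12), and -0.05 (6 of 12). Gria3, an AMPA receptor subunit, had -0.40 (between -0.51 and -0.17 over the 20 alternative settings), Kcna1 -0.57 (SE 0.403, between -0.93 and -0.29) and Nos1ap -0.35 (between -0.53 and 0.19, and 0.18 with BR mice alone). No member of these lists was called.

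Neuropeptide precursors had a median of -0.07 with 14 of 21 below 0, and -0.30 with 16 of 21 with BR mice alone; over the 20 settings the median ran from -0.30 to 0.07. Their largest absolute value was in Oxt, oxytocin (-0.95, SE 0.473), which was 15.1 CPM in control replicate 1 and 2.06 to 5.50 CPM in the other 8 IPs. In the lists that follow the second value is that with BR mice alone. Receptors of somatostatin and NPY had -0.15 (7 of 8 below 0) and -0.13 (6 of 8), peptide processing genes -0.13 (12 of 15) and -0.02 (9 of 15), synaptic vesicle genes -0.11 (13 of 21) and -0.06 (13 of 21), genes of GABA synthesis and uptake -0.16 (7 of 8) and -0.02 (4 of 8), and interneuron transcription factors -0.11 (15 of 17) and -0.16 (10 of 17). Over the 20 settings Oxt ran from -1.57 to -0.29, Sstr4 (-0.58, SE 0.453) from -1.11 to -0.06, Snap25 (-0.27) from -0.51 to -0.07, the transporter Slc6a11 (-0.40) from -0.72 to -0.25 and Dlx5 (-0.38) from -0.46 to -0.16. None of these members was called by edgeR or DESeq2.

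Lists of cell upkeep are given in the same way, all mice first and BR mice alone second. Medians were -0.11 and -0.19 for cholesterol synthesis (18 of 21 below 0 in both), -0.01 and -0.03 for autophagy (9 and 10 of 18, Map1lc3a at 0.22), 0.05 and 0.06 for the proteasome (12 and 8 of 31, Psmc5 at 0.34), and -0.01 and 0.12 for heat shock proteins (9 and 7 of 18, Cryab at 0.65). They were -0.07 and 0.04 for huntingtin and its partners (9 and 5 of 12), 0.11 and 0.11 for cyclin D and polycomb genes (3 and 5 of 13, Pcgf2 at 0.39) and -0.04 and 0.30 for DNA repair genes that modify repeat expansion (6 and 1 of 11). Over the 20 settings Map1lc3a ran from -0.11 to 0.34, Psmc5 from 0.14 to 0.49, Cryab from 0.41 to 0.83 and Pcgf2 from 0.28 to 0.46. None of the named members passed edgeR.

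Lists of other cells had medians of -0.08 for glutamatergic neurons (5 of 9 below 0, Slc17a8 at -0.42), -0.04 for oligodendrocytes (6 of 10, Opalin at 0.67), 0.19 for their precursors (2 of 5, Olig2 at 0.54), 0.19 for microglia (2 of 10, Aif1 at 0.66) and 0.24 for endothelial and mural cells (1 of 9, Acta2 at 0.46). With BR mice alone they were -0.16 (8 of 9), -0.22 (9 of 10), 0.27 (1 of 5), 0.13 (2 of 10) and 0.02 (3 of 9). Over the 20 settings Slc17a8 ran from -0.66 to -0.17, Opalin from 0.20 to 1.11, Olig2 from 0.27 to 0.72, Aif1 from 0.16 to 1.23 and Acta2 from 0.33 to 0.67. Ttr, transthyretin of the choroid plexus, was 168, 133, 92.5, 95.6 and 67.3 CPM in control replicates 1, 2, 3, 4 and 6 and 82.2, 280, 462 and 264 CPM in HD. HD replicate 1 lay within the controls and the other 3 HD IPs above them. The log2 fold was 1.29 (SE 0.392, adjusted p 1.0, edgeR) and the median of the 5 choroid plexus markers was 0.10. In total RNA Ttr stood at 631 to 1196 CPM with a log2 fold of 0.16 (SE 0.228).

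Total RNA of the line was tested in the same way. EdgeR called 0 of 14878 genes (0%), with 381 at an unadjusted p under 0.05 (2.56%; 225 to 1094 over the alternative settings, the most without HD replicate 2), and DESeq2 called 15 (0.101%), 13 lower and 2 higher in HD. The 2 higher ones were Chdh and 2210418O10Rik, a gene of uncertain annotation; the latter is named only because its values were seen to pass. The 2.56% also lay below the share of about 0.05 that would have such a p if no gene differed. Groups did not overlap for 593 genes (3.99%). Whether the HD effect differed between IPs and total RNA was tested for 14865 genes: edgeR called 0 (0%), with 60 at an unadjusted p under 0.05 (46 to 242 over the settings), and DESeq2 called 1, mt-Nd3.

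The HD effect in SST IPs was last set against that in IPs of PV neurons (6 control, 5 HD) and of all Gad2 neurons of the cerebrum (6 control, 6 HD). For the difference between SST and PV, edgeR called 0 of 14724 genes (0%), with 137 at an unadjusted p under 0.05 (72 to 544 over the settings), and DESeq2 called 1, mt-Nd3. For SST against Gad2, edgeR called 0 of 14566 (0%), with 226 at an unadjusted p under 0.05 (110 to 527), and DESeq2 again called mt-Nd3 alone. In edgeR, then, no gene passed the test that its HD effect in SST IPs differed from that in PV or in Gad2 IPs, which does not show that they respond alike. The fold of mt-Nd3 is uncertain here too, since all 5 SST control IPs were at 0.

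For Etnppl the HD effect in the fit with PV neurons was -1.18 (SE 0.203, adjusted p 0.0218, edgeR) in PV IPs and in the fit with Gad2 neurons -1.92 (SE 0.373, adjusted p 0.0432, edgeR) in Gad2 IPs, where SST gave -1.59. The SST value minus the PV value was -0.41 (SE 0.296), and minus the Gad2 value 0.33 (SE 0.533). For Dao the difference was -0.58 (SE 0.484) from PV and -1.63 (SE 0.918) from Gad2, where the effect itself was -0.14 (SE 0.622). Akr1c18 had 0.11 (SE 0.167) in PV IPs, and its difference of -1.11 (SE 0.253) reached an adjusted p of 1.0 in edgeR. Hist1h1c had -0.09 in PV IPs and a difference of 1.03 (SE 0.294, adjusted p 1.0, edgeR). The difference from Gad2 over the 16 alternative settings was -0.67 to -0.42 for Akr1c18 and 0.53 to 0.93 for Hist1h1c, never called. The striatal projection neuron list had a median difference of 0.02 from PV and 0.14 from Gad2, the SST marker list -0.06 and 0.01, and the ribosomal protein list 0.52 and 0.47, beside -0.02 and 0.03 over all genes tested.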

How the data were processed

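The authors aligned TruSeq stranded mRNA reads with STAR and quantified them with Salmon through nf-core/rnaseq at default settings, on GRCm38.p6 with ERCC and HA tag sequences added, and deposited 1 table of estimated counts per gene. Counts were rounded. Tests took protein-coding genes whose count averaged above 10 across the libraries of the comparison, and were run with edgeR 4.0.16 (TMM, quasi-likelihood F test, Benjamini-Hochberg over all genes tested, called at 0.05 or less). DESeq2 1.42.0 was the other tool. R was 4.3.3. The SE is the log2 fold over the square root of F. The fits were tested on simulated data. Genes are named by a rule: a short list whatever the values, the 20 genes with the lowest unadjusted p (since fewer than 10 were called), in each list the member with the largest absolute log2 fold, and up to 5 called genes with the lowest p in other comparisons. Further list members are given as examples, chosen after their values were seen. Members and lists were chosen with earlier results of these data known. Alternatives changed the tool, scaling, filter, gene types, replicate block, mouse code, Xist level, and libraries fitted, and left out each SST line library in turn; in the fits with PV or Gad2, PV control and Gad2 libraries were not left out. Read counts without molecular identifiers are not independent molecules.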

Additional observations from a re-analysis of the deposited data

Results flagged for a closer look

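Single samples far from the rest of their group were looked for in 100 groups of values and found in 13. Chance gives about 5% for independent, normally distributed values. These groups share libraries and include genes picked by low p, so 13 cannot be read as an excess. In control SST IPs, replicate 6 stood apart for Sst (980.4 CPM), Zfp973 (5.943 CPM), Chdh (9.975 CPM) and Cdkn1c (3.371 CPM). Control replicate 3 stood apart for Dao (3.521 CPM), Tmc3 (0.8544 CPM) and its total of 40913915 counts. Control replicate 1 stood apart for Pde10a (107.1 CPM) and for its share of mitochondrially encoded counts (1.807%). In HD SST IPs, replicate 4 stood apart for Gad2 (264.9 CPM), Dusp18 (10.94 CPM) and its place on the first principal component (27.56), and replicate 2 for its share of mitochondrially encoded counts (3.419%).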

How the results depend on the processing

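Limits: code and sex go together in the controls, HD mice are all coded BR, Dao rested on as few as 22 counts in an HD IP, and replicate numbers do not pair samples (the correlation of same-number deviations was -0.21, 0.15, -0.05 and -0.07 over genes in IPs). Counts of calls moved by more than 1.5 times, or to or from 0, in 17 alternatives; in the other 109 they were equal or within 1.5 times. For HD against control in SST IPs (0 calls), DESeq2 gave 2, adding total RNA gave 1 (Etnppl), the replicate block gave 0 and leaving out each library gave 0 to 1 (mt-Nd3, without HD replicate 3). SST minus PV and SST minus Gad2 gave 1 each with DESeq2, 0 with the replicate block and 0 to 0 over SST IPs (and PV HD IPs) left out; PV controls and Gad2 IPs were not left out. Total RNA gave 15 with DESeq2, 1 without a count filter (2210418O10Rik), 1 with all gene types (Gm8210), 3 with the replicate block (Gm10409, Gm3020 and Gm45837, predicted genes of uncertain annotation), 1 with BR mice alone (Gm10409) and 0 to 2 over libraries left out (2 without control replicate 4). Control replicate numbers do not name the same mice in total RNA as in IPs. IP minus total RNA gave 1 with DESeq2 and 0 to 1 over libraries left out (1 without HD replicate 3, mt-Nd3). IP against total RNA gave 8911 to 9849 over libraries left out. Z against BR controls (6 calls) gave 33 with DESeq2 and 0 to 10 over libraries left out (0 without control replicate 1, 2 without replicate 2, 10 without replicate 3); with 1 BR control left, it is assumed to vary like the other libraries. Signs turned for log2 folds in SST IPs that were not called. With BR mice alone and with the code as covariate the values were -0.0134 and -0.0132 for Ccnd1, 0.0399 and 0.0402 for Gad1, 0.16 and 0.16 for Nos1, 0.18 and 0.19 for Nos1ap, and 0.0236 and 0.0241 for Ptprn2. With the replicate block they were -0.0132 for Cort and -0.11 for Npy, and with Xist as covariate -0.0041 for Npy. Over libraries left out they ran from -0.19 to 0.32 for Cort, -0.30 to 0.0299 for Gad1, -0.11 to 0.34 for Map1lc3a, -0.29 to 0.27 for Npy and -0.46 to 0.10 for Sst. The cause was not tested.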
